A study of Mus musculus with 14 samples.

Results

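Livers of mice kept on a diet that produces steatohepatitis and treated with C18:1 were compared with livers of mice on the same diet without C18:1. The comparison uses 7 of the 14 RNA-seq libraries, chosen by their titles: 4 libraries titled MASH OA, in which OA is taken here as C18:1, and 3 titled MASH (replicates 2, 3 and 4). The other 7 libraries were 4 from chow-fed mice and 3 from mice given C18:1-leucine. They entered the choice of tested genes, the scaling and the estimate of the spread. All animals were male C57BL6/J mice, 8 weeks old at the start, and both groups ate the MASH diet for 16 weeks. C18:1 was given during 6 further weeks on that diet, and the labels do not say how the MASH group spent these weeks. The design text names a vehicle besides C18:1 and C18:1-leucine, but no title or tag says whether the MASH group received it, and no dose is given. Nothing says that the libraries come from separate mice, so p-values measure only the spread between these libraries, which may be technical. C18:1 replicate 1 carries a treatment tag that reads as diet alone, whereas its title places it with C18:1, and C18:1-leucine replicate 1 carries the tag of C18:1. Titles were used for grouping, and values with the groups read from the tags are given for many of the statements. Those values count C18:1 replicate 1 as MASH and C18:1-leucine replicate 1 as C18:1.

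C18:1 is the shorthand for a fatty acid of 18 carbons with 1 double bond. Oleic acid, the common form, is burnt in mitochondria and peroxisomes or stored in hepatocytes as triglyceride and phospholipid. Fatty acids and their derivatives can act as ligands of PPARα, the nuclear receptor that switches on hepatic fatty acid oxidation genes during fasting. CCL2, the chemokine that draws monocytes into the injured liver, is the other factor named in the title of the study. Steatohepatitis (MASH, metabolic dysfunction-associated steatohepatitis) adds inflammation, hepatocyte injury and scarring to a fatty liver, with recruited macrophages, activated stellate cells and a proliferation of bile duct cells.

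The 7 libraries held between 33821874 and 50082542 counts (the whole series reached 51107248), and no pair within a group agreed within sampling noise. All 6 hepatocyte markers were present in each library. Their summed level was 58481, 55307 and 52007 CPM (a gene's count divided by its library's TMM-scaled size and expressed in CPM units) in MASH replicates 2, 3 and 4. In C18:1 replicates 1 to 4 it was 41118, 50370, 47209 and 43756 CPM, all below the MASH libraries. Albumin carried much of that sum: without it, the MASH libraries held 15942 to 18463 CPM and the C18:1 libraries 12293 to 18684 CPM, and the groups overlapped. Markers of pancreas and of fat tissue summed to at most 0.228 and 0.0458 CPM, so admixed neighbouring tissue was hardly detectable. In bulk tissue, fewer cells of a type and less RNA per cell cannot be told apart.

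The main axis of variation did not follow treatment. The first principal component, with 43.8% of the variance of the 7 libraries, put MASH replicate 4 (score 25.9) beside C18:1 replicates 1 and 3 (39.6 and 27.8). On its other side stood MASH replicates 2 and 3 (−30.8 and −36.5) with C18:1 replicate 2 (−28.5). C18:1 replicate 4 lay near the middle at 2.5. Over all tested genes, MASH replicate 4 was nearer to C18:1 replicates 1 and 3 (root mean square log2 difference 0.408 and 0.407) than to MASH replicates 2 and 3 (0.563 and 0.624). Genes with the highest weights on the high side included Mmp7 and Itgb6, and those on the low side Marco and Cd163, which are expressed by resident macrophages. Bile duct markers moved with the same axis. Their sum over 6 genes was 49.5, 53.4 and 58.7 CPM in MASH replicate 4 and C18:1 replicates 1 and 3, and 22.6 to 29.6 CPM in the other 4 libraries. Resident macrophage (Kupffer cell) markers went the other way, at 125 to 152 CPM in those 3 libraries and 234 to 329 CPM in the rest.

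**Figure D1:**
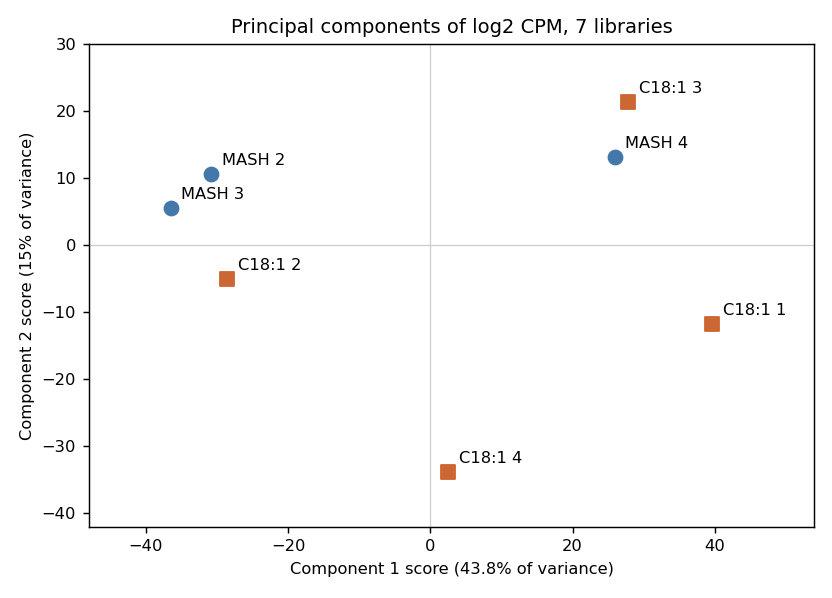
Scores of the 7 libraries on the first and second principal components of log2 CPM; circles are MASH libraries, squares C18:1 libraries, and the digit is the replicate. MASH replicate 4 sits at 25.9 on component 1, beside C18:1 replicates 1 and 3, and C18:1 replicate 2 sits at −28.5 beside the other MASH libraries.

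No gene passed an adjusted p of 0.05 between C18:1 and MASH. Of 15674 genes tested with edgeR's quasi-likelihood test, 0 (0%) passed, and the lowest Benjamini-Hochberg adjusted p was 0.770. At an unadjusted p under 0.05 there were 968 genes (6.18%), 480 higher with C18:1 (3.06%) and 488 lower (3.11%). Without overlap between the groups there were 437 genes higher (2.79%) and 419 lower (2.67%). Limma voom also called 0 genes, while DESeq2 on the same counts called 3: Lipc, Cept1 and Agap2. The authors' deposited table that was taken as this contrast from its fold changes lists 15679 genes. Of these, 0 have an adjusted p under 0.05 and 1146 an unadjusted p under 0.05. The lowest adjusted p of the authors' deposited table is 0.676, and its group letters come without a key.

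The absence of calls leaves room for moderate differences in most genes. The median standard error of a log2 fold change was 0.15, and the median half-width of its 95% interval 0.33. For 12330 genes (78.7%) the whole interval lay within a 2-fold difference in either direction. Among genes without overlap, 35 were higher and 11 lower by at least 2-fold. The values that follow are descriptions of genes that did not pass the adjusted threshold, and p given beside them is unadjusted unless named otherwise.

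By title, Lipc and 3 enzymes of phospholipid synthesis were lower in every C18:1 library than in every MASH library, by small margins. Lipc encodes hepatic lipase, which hydrolyses triglyceride and phospholipid in lipoprotein remnants (ENSMUSG00000032207, GRCm38 chromosome 9, 70798128 to 70952226, minus strand). It measured 132, 111 and 123 CPM in MASH replicates 2, 3 and 4, and 95.3, 97.5, 102 and 92.4 CPM in C18:1 replicates 1 to 4. The log2 difference was −0.33 (SE 0.07, 95% interval −0.48 to −0.19, unadjusted p = 0.000265). Its adjusted p was 0.770 with edgeR and 0.0185 with DESeq2, and over the alternatives it ran from 0.0185 to 1. With groups from the treatment tags the difference was −0.13, and the groups overlapped.

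Cept1 encodes the choline/ethanolamine phosphotransferase that makes phosphatidylcholine and phosphatidylethanolamine from diacylglycerol (ENSMUSG00000040774, chromosome 3, 106502260 to 106547802, minus strand). It stood at 61.2, 54.7 and 51.7 CPM in MASH and at 42.5, 46.9, 41.0 and 44.5 CPM with C18:1. The log2 difference was −0.35 (SE 0.07, interval −0.51 to −0.19, unadjusted p = 0.000319), with an adjusted p of 0.0296 by DESeq2 and of 0.770 by edgeR. Over its alternatives the adjusted p ran from 0.0296 to 1. A second ethanolamine phosphotransferase, Selenoi, was at 67.2, 69.2 and 69.9 CPM in MASH and at 60.4, 59.4, 60.8 and 62.2 CPM with C18:1, a log2 difference of −0.18 (interval −0.35 to −0.01, unadjusted p = 0.0394). Pcyt2 makes the CDP-ethanolamine that both of these enzymes use. It measured 470, 460 and 490 CPM in MASH against 392, 447, 415 and 403 CPM with C18:1, a log2 difference of −0.19 (interval −0.36 to −0.03, unadjusted p = 0.0265). Pcyt2 and Selenoi were singled out after their values were seen.

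The list of 30 glycerolipid and phospholipid genes that holds these 3 enzymes did not shift as a whole. Its median log2 difference was −0.06, against 0.00 for all tested genes, with 13 members above and 17 below zero. Unadjusted p was under 0.05 for 2 members higher and 3 lower (background 3.06% and 3.11%), and 2 higher and 3 lower did not overlap (background 2.79% and 2.67%). The pair higher with C18:1 was Agpat1, which acylates lysophosphatidic acid, and Mogat2, which acylates monoacylglycerol. Agpat1 was at 10.2, 10.4 and 9.13 CPM in MASH and 11.9, 14.2, 12.3 and 12.6 CPM with C18:1 (log2 difference 0.36, interval 0.11 to 0.61). Mogat2 was scarce, at 0.145, 0.229 and 0.450 CPM in MASH and 0.762, 0.625, 0.809 and 0.544 CPM with C18:1 (log2 difference 1.31, interval 0.40 to 2.22). With the tag groups 0 members of the list were higher without overlap and 1 was lower (background 1.03% and 0.925%). In that setting 1 was higher and 3 lower at an unadjusted p under 0.05 (background 2.12% and 1.62%).

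**Figure D2:**
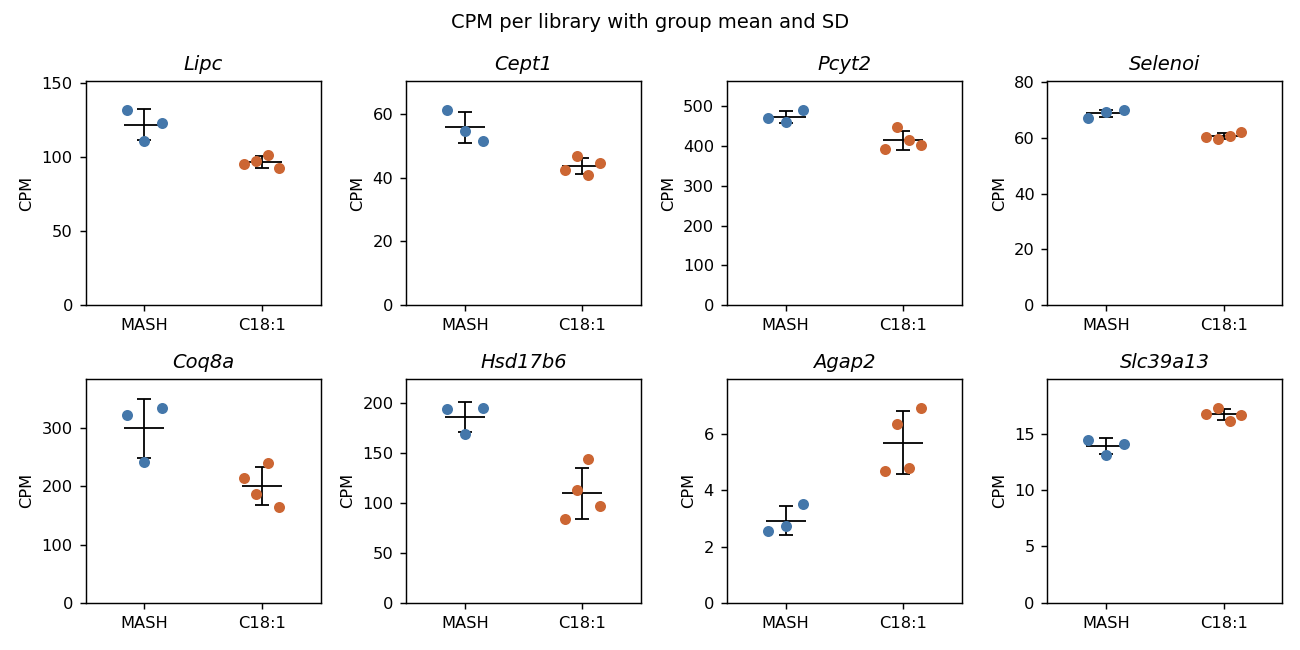
CPM of 8 genes in each MASH (3) and C18:1 (4) library as points, with the group mean (horizontal mark) and SD (whiskers); each vertical axis starts at 0. In every panel the groups, read from the titles, do not overlap, as for Lipc, 111 to 132 CPM in MASH and 92.4 to 102 CPM with C18:1.

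Other lipid lists differed among themselves. Lipogenesis and desaturation genes had a median log2 difference of −0.04 over 21 genes, and cholesterol synthesis genes 0.02 over 25 genes with 0 at an unadjusted p under 0.05. Of 25 lipoprotein and lipase genes 18 were below zero (median −0.15), and so were 12 of 17 lipid droplet genes (median −0.15). Lipc and 1 other of the 25 were lower at an unadjusted p under 0.05 (background 3.11%). With the tag groups the lipoprotein and lipase median was 0.04, and 16 of the 25 were above zero. Of 18 fatty acid uptake and binding genes 14 were below zero (median −0.19, as for the PPARα targets), and 3 were lower at an unadjusted p under 0.05 (background 3.11%): Acsl1, Acsl5 and Acbd5. Acsl1 is also among the PPARα targets. Acsl5, an acyl-CoA synthetase, was at 321, 262 and 306 CPM in MASH and 271, 259, 225 and 243 CPM with C18:1 (log2 difference −0.25, interval −0.45 to −0.04). Fabp2, a fatty acid binding protein, was the 1 member without overlap (background 2.67%). It measured 139 to 173 CPM in MASH and 103 to 138 CPM with C18:1 (log2 difference −0.32, interval −0.68 to 0.03).

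Hepatocyte and mitochondrial genes were mostly a little lower with C18:1, and C18:1 replicate 1 was the lowest library for most of them. Albumin, the main secreted product of hepatocytes, measured 40092, 36844 and 36065 CPM (Alb) in MASH and 28825, 31687, 29571 and 29859 CPM with C18:1. The Alb groups did not overlap, and the log2 difference was −0.33 (SE 0.15, interval −0.64 to −0.01, unadjusted p = 0.0416). With groups from the tags the Alb difference was 0.05. Of 30 hepatocyte genes, 27 were below zero (median −0.13), 3 were lower at an unadjusted p under 0.05 (background 3.11%), and 24 were lowest in C18:1 replicate 1. Without that library the median was −0.04, 19 genes were below zero and 0 had an unadjusted p under 0.05. In that setting 1.82% of all genes were higher and 2.12% lower at that level. Without C18:1 replicate 2 the median was −0.24.

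Mitochondrial energy genes also lay below zero. All 27 respiratory chain genes and all 22 branched-chain amino acid genes were below zero, with medians of −0.09 and −0.14. In both lists C18:1 replicate 1 was most often the lowest library (17 of 27 and 12 of 22 genes) and MASH replicate 2 most often the highest (17 and 16 genes). With groups from the tags the medians were 0.05 and 0.06. The leading respiratory chain member was Coq8a, a kinase-like protein required for coenzyme Q synthesis. It was at 323, 242 and 335 CPM in MASH and 214, 187, 240 and 164 CPM with C18:1, without overlap (log2 difference −0.57, SE 0.13, interval −0.85 to −0.30, unadjusted p = 0.000506). Coq8a also stayed lower with the tag groups, at −0.40.

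Branched-chain amino acid breakdown had 4 of 22 members with an unadjusted p under 0.05, all lower (background 3.11%). Acadsb, the short/branched-chain acyl-CoA dehydrogenase, was at 119, 98.5 and 102 CPM in MASH and 76.3, 99.1, 85.3 and 85.7 CPM with C18:1 (log2 difference −0.30, interval −0.51 to −0.08). Hibadh, Mcee and Ppm1k were the others, with log2 differences of −0.27, −0.19 and −0.40. The urea cycle gene Otc measured 324, 240 and 309 CPM in MASH and 207, 292, 228 and 220 CPM with C18:1 (log2 difference −0.30, interval −0.56 to −0.03), and its groups overlapped. Ttr, which carries thyroxine and retinol-binding protein, differed by −0.31 (interval −0.58 to −0.04). Among 24 bile acid genes, 21 were below zero (median −0.17). Of these, 1 was lower at an unadjusted p under 0.05 (background 3.11%), the hepatocyte uptake carrier Slco1b2. It measured 1013 to 1083 CPM in MASH and 809 to 950 CPM with C18:1 (log2 difference −0.24, interval −0.46 to −0.01). With the tag groups the bile acid median was 0.13, and 17 of the 24 genes were above zero.

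N-acyl amino acids, the class to which C18:1-leucine belongs, are made and split by amide enzymes, of which 17 genes were tested. Their median log2 difference was −0.11, with 0 higher and 3 lower at an unadjusted p under 0.05 (background 3.06% and 3.11%). Without overlap 1 was higher and 2 lower (background 2.79% and 2.67%). With the tag groups the median was 0.02, and 10 of the 17 were above zero. In that setting 0 were without overlap (background 1.03% higher and 0.925% lower), and 1 was higher and 0 lower at that p (background 2.12% and 1.62%). Faah, a fatty acid amide hydrolase, was at 139, 134 and 130 CPM in MASH and 112, 119, 126 and 122 CPM with C18:1, without overlap (log2 difference −0.16, interval −0.30 to −0.03, unadjusted p = 0.0227). Aspa, which splits N-acetylaspartate, was also without overlap at 6.82 to 8.66 CPM against 5.19 to 6.56 CPM (log2 difference −0.41, interval −0.76 to −0.07). Naaa, an acid amidase of lysosomes, was higher without overlap, at 4.85 to 6.07 CPM in MASH and 6.19 to 7.6 CPM with C18:1 (log2 difference 0.34, interval −0.01 to 0.69). Glyat, which conjugates glycine, differed by −0.28 (interval −0.50 to −0.07).

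Other hepatocyte-expressed genes lay among the 12 with the smallest p in the lower direction. Hsd17b6, a steroid and retinol dehydrogenase, was at 194, 169 and 195 CPM in MASH and 83.9, 113, 144 and 97.4 CPM with C18:1 (log2 difference −0.76, SE 0.18, interval −1.15 to −0.38, unadjusted p = 0.000902). A1cf, a cofactor of apolipoprotein B mRNA editing, was at 150, 128 and 111 CPM in MASH and between 96.1 and 97.2 CPM in all 4 C18:1 libraries (log2 difference −0.43, interval −0.65 to −0.21). The narrow range of A1cf with C18:1 (SD 0.477) contrasts with a SD of 19.6 in MASH. Rida, a deaminase of reactive imines, measured 427 to 559 CPM in MASH and 310 to 417 CPM with C18:1 (log2 difference −0.47, interval −0.73 to −0.22). Nmt2, an N-myristoyltransferase that attaches a fatty acid to proteins, measured 27.2 to 32.6 CPM and 22.3 to 24.8 CPM (log2 difference −0.35, interval −0.53 to −0.17). Lgalsl, Mreg and Slc45a3 differed by −0.55, −0.55 and −0.67. None of these 7 genes overlapped between the groups.

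The PPARα targets were mostly lower with C18:1, and 1 MASH library carried much of that difference. Of 44 targets, 41 were below zero with a median log2 difference of −0.19, 6 had an unadjusted p under 0.05 in the lower direction and 1 in the higher (background 3.11% and 3.06%). No target was free of overlap between the groups (background 2.79% higher and 2.67% lower). MASH replicate 2 was the highest library for 36 of the 44 genes. Relative to the mean of the MASH libraries, the median target lay at 0.29, −0.01 and −0.22 in MASH replicates 2, 3 and 4, and at −0.36, −0.14, −0.18 and −0.12 in C18:1 replicates 1 to 4 on the log2 scale. MASH replicate 4 thus lay within the range of the C18:1 libraries. Without MASH replicate 2 the median difference was −0.06 and 0 targets had an unadjusted p under 0.05. In that setting 1.19% of all genes were higher and 0.986% lower at that level. Without MASH replicate 4 the median was −0.31, and 19 targets were lower at that level, against 4.95% of all genes in that setting. With the tag groups the median was −0.06 and 16 of the 44 targets were above zero. With those groups 1 target was lower at that level, against 1.62% of all genes.

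Acot3 and Pdk4, the targets with the smallest p, were both highest in MASH replicate 2 and differed in the order of the C18:1 libraries. Acot3, a peroxisomal acyl-CoA thioesterase, measured 27.3, 7.64 and 2.48 CPM in MASH and 2.25, 1.96, 4.85 and 2.07 CPM with C18:1. The Acot3 log2 difference of −2.15 (SE 0.65, interval −3.56 to −0.74) became −0.85 without MASH replicate 2 and 0.10 with the tag groups. Pdk4, which inhibits pyruvate dehydrogenase and so spares glucose, measured 113, 42.0 and 34.9 CPM in MASH and 35.3, 14.9, 33.2 and 33.5 CPM with C18:1 (log2 difference −1.11, interval −1.91 to −0.31, and −0.39 without MASH replicate 2). MASH replicates 2 and 3 lay above every C18:1 library for Acot3 and for Pdk4, and MASH replicate 4 lay within their range.

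Acsl1, which activates fatty acids for oxidation and storage, measured 2159, 1121 and 877 CPM in MASH and 817, 919, 916 and 896 CPM with C18:1 (log2 difference −0.64, and −0.17 without MASH replicate 2). Cyp4a14, a fatty acid omega-hydroxylase, measured 3034, 901 and 389 CPM in MASH and 214, 737, 756 and 1027 CPM with C18:1. The Cyp4a14 difference of −1.08 (interval −2.40 to 0.25) was 0.08 without MASH replicate 2. Acot1 and Acot4, further thioesterases, differed by −1.09 and −0.82, and Angptl4, a secreted lipase inhibitor, by −0.56. Ucp2, a mitochondrial carrier, was the target higher with C18:1 at an unadjusted p under 0.05, at 68.1 to 84.9 CPM in MASH and 80.4 to 108 CPM with C18:1 (log2 difference 0.31, interval 0.05 to 0.57). Ppara itself measured 133, 151 and 114 CPM in MASH and 126, 140, 126 and 92.5 CPM with C18:1, a log2 difference of −0.13 (interval −0.44 to 0.17, unadjusted p = 0.358).

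MASH replicate 2 also stood apart in genes of the circadian clock. Arntl, which encodes the clock activator BMAL1, measured 26 CPM in MASH replicate 2 and 5.99 to 14.8 CPM in the other 6 libraries. Npas2, a partner of BMAL1, measured 11.1 CPM there and 0.966 to 4.26 CPM elsewhere. Dbp, an output gene of the clock, was at 2.30 CPM in MASH replicate 2 and at 32.7 to 80.9 CPM in the other libraries, and the repressor Nr1d1 at 19.0 CPM against 59.8 to 80.5 CPM. Activators were thus highest and outputs lowest in the library in which PPARα targets were highest. Per3 gave 2.03 CPM there and 7.92 to 18.9 CPM elsewhere. No label gives the hour of tissue collection, and the part of these clock values in the PPARα difference was not tested.

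**Figure D3:**
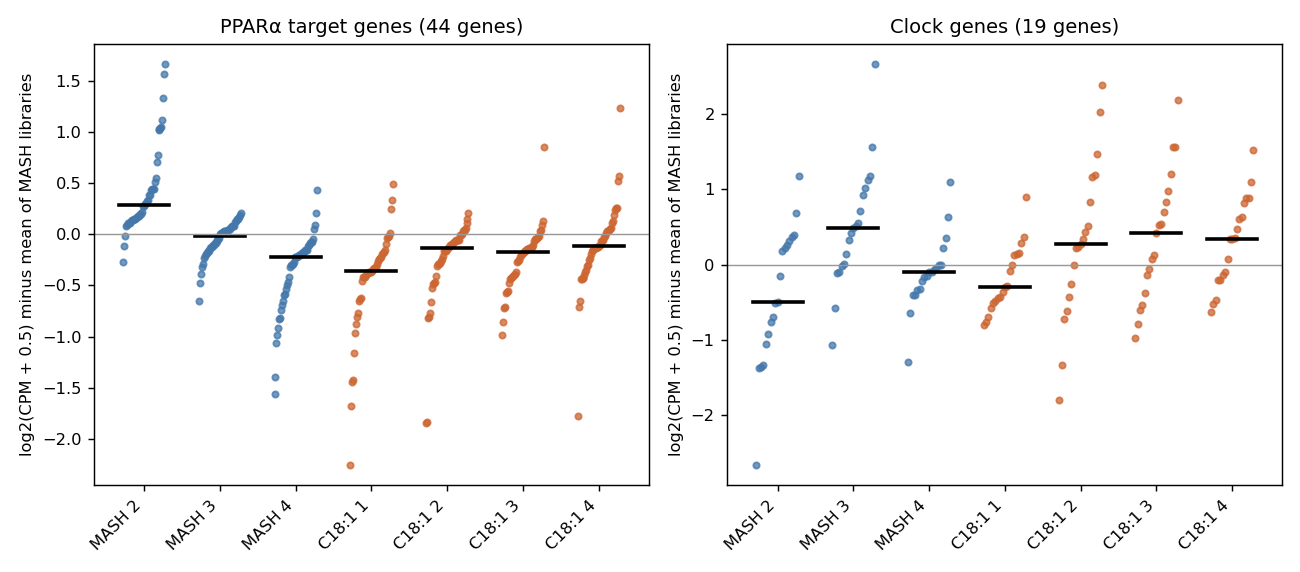
Each point is 1 gene in 1 library, as log2(CPM + 0.5) minus the mean of the 3 MASH libraries, sorted within the library, for 44 PPARα targets (left) and 19 clock genes (right); bars are medians and the digit is the replicate. The median PPARα target stands at 0.29 in MASH replicate 2, and from −0.36 to −0.12 in the C18:1 libraries.

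Interferon response genes were higher with C18:1, most of all in 1 library. All 25 genes of the list were above zero, with a median log2 difference of 0.39, and 11 had an unadjusted p under 0.05, against a background of 3.06% in that direction. Between the groups 6 did not overlap (background 2.79%). A fit of the compared groups alone gave 5 genes higher at an unadjusted p under 0.05 (background 3.01%), with the median at 0.39. All 25 were highest in C18:1 replicate 4. Relative to the mean of the MASH libraries, the median gene lay at 0.06, −0.07 and −0.04 in MASH replicates 2, 3 and 4, and at 0.04, 0.20, 0.25 and 0.83 in C18:1 replicates 1 to 4. C18:1 replicate 1 thus lay among the MASH libraries, and replicates 2 and 3 above them by a smaller margin than replicate 4. Without replicate 4 the median difference was 0.21, with 3 genes at an unadjusted p under 0.05 and 6 without overlap. The shares of all genes in that setting were 1.89% and 3.77% in the higher direction. With the tag groups the median was 0.23, with 3 genes at that p and 0 without overlap, against 2.12% and 1.03% of all genes. T and NK cell markers were also high in replicate 4 (8.94 CPM), and in replicate 1 (9.57 CPM), in which interferon genes were at the MASH level; their part was not tested.

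Promoters of this list are shown because its genes moved together across libraries. The interferon-stimulated response element is a short motif of such promoters, searched here as a pair of GAAA words with any 2 bases between them, on both strands, in the 250 bases before each RefSeq transcription start (GRCm38.p6). The table held promoters of 17 of the 25 genes. The element was present for 10 of these 17 genes, in 10 of 19 promoters (52.6%), against 978 of 32851 promoters of that length (2.98%). Among the PPARα targets it was present in 1 of 40 promoters (2.5%). A match is a run of letters and says nothing about binding in these livers, and a window without one says nothing about the factor. The promoters of Isg15 (chr4:156200819-156201068, minus strand, 3 matches that overlap each other), Ifit3 (chr19:34583279-34583528, plus strand, 2 matches on the opposite strand) and Oasl2 (chr5:114896684-114896933, plus strand, no match) are written 5′ to 3′ with matches in capitals.
Isg15: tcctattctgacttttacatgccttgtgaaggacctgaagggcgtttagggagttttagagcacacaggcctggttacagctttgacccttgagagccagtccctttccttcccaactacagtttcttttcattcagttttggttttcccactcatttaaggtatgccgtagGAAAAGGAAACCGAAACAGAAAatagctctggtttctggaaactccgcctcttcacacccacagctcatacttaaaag
Ifit3: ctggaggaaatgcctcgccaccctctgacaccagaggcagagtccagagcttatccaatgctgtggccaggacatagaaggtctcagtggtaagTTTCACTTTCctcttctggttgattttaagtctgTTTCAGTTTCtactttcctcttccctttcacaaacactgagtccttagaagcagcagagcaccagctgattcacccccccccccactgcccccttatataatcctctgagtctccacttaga
Oasl2: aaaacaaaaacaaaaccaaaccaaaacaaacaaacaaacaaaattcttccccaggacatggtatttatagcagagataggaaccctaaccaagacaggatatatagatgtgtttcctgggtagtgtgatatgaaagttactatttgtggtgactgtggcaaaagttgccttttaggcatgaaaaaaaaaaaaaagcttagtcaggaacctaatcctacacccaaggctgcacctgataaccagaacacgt

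Oasl2, a member of the oligoadenylate synthetase family, was the interferon gene with the smallest p. It measured 12.8, 14.8 and 15.9 CPM in MASH and 19.4, 18.5, 20.5 and 25 CPM with C18:1, without overlap (log2 difference 0.52, SE 0.14, interval 0.22 to 0.82, unadjusted p = 0.00238). Isg15, a ubiquitin-like protein, measured 14.2, 14.8 and 14.6 CPM in MASH and 14.4, 20.1, 19.1 and 26.4 CPM with C18:1 (log2 difference 0.46, interval 0.13 to 0.79). C18:1 replicate 1 lay within the range of the MASH libraries for Isg15, and the other 3 lay above it. Ifit3, which binds viral RNA together with other IFIT proteins, measured 30.3, 26.2 and 30.7 CPM in MASH and 29.8, 35.6, 37.2 and 58.9 CPM with C18:1 (log2 difference 0.47, interval 0.09 to 0.86, and 0.23 without C18:1 replicate 4).

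The other members without overlap were Oas2, Xaf1, Ifit3b, Ifit2 and Oas1a, with log2 differences of 0.54, 0.39, 0.51, 0.45 and 0.32. Ifit3 and Ifit3b are near-identical copies, so their reads may be divided between them. Outside the list, Uba7, the enzyme that activates ISG15, was among the 12 smallest p in the higher direction, at 21.0, 21.6 and 27.4 CPM in MASH and 30.7, 27.1, 29.5 and 36.1 CPM with C18:1 (log2 difference 0.40, SE 0.11, interval 0.16 to 0.64). MASH replicate 4 and C18:1 replicate 2 overlapped for Uba7.

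T and NK cell genes were also higher, in 2 of the 4 C18:1 libraries. Of 26 genes 24 were above zero, with a median log2 difference of 0.46, 5 higher at an unadjusted p under 0.05 (background 3.06%) and 1 without overlap (background 2.79%). The highest library was C18:1 replicate 4 for 13 genes and C18:1 replicate 1 for 10. The sum of 5 markers was 4.14, 4.37 and 3.75 CPM in MASH and 9.57, 4.52, 4.35 and 8.94 CPM with C18:1, so replicates 2 and 3 lay at the MASH level. Without replicate 1 the list median was 0.26, without replicate 3 it was 0.69, and with the tag groups it was −0.05. The T cell receptor subunit gene Cd3e measured 0.60, 0.435 and 0.246 CPM in MASH and 1.44, 0.710, 0.701 and 1.26 CPM with C18:1 (log2 difference 1.27, interval 0.34 to 2.19). Trbc2 and Trac, constant regions of the receptor, differed by 1.03 and 1.05, and the kinase gene Lck by 0.72. These 4 genes stood at or below 3.13 CPM in all 7 libraries.

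**Figure D4:**
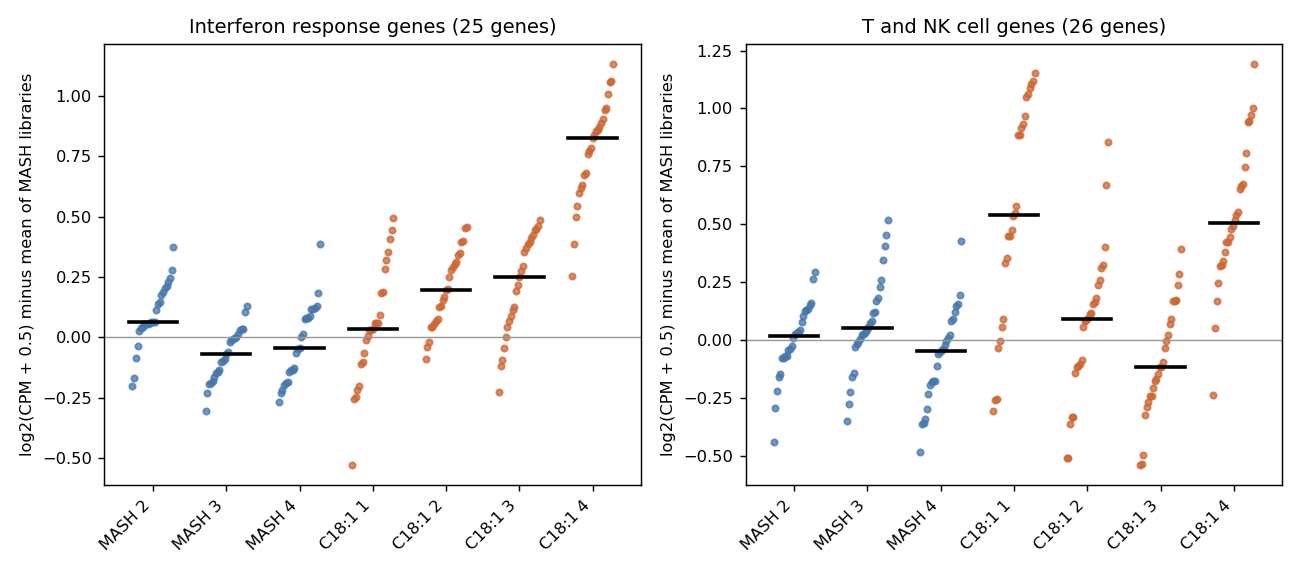
Each point is 1 gene in 1 library, as log2(CPM + 0.5) minus the mean of the 3 MASH libraries, sorted within the library, for 25 interferon response genes (left) and 26 T and NK cell genes (right); bars are medians and the digit is the replicate. The median interferon gene reaches 0.83 in C18:1 replicate 4 and 0.04 to 0.25 in the other C18:1 libraries.

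Genes of recruited macrophages and of matrix were mostly higher with C18:1, and their groups overlapped. The median macrophage gene was highest in C18:1 replicates 4 and 1 (0.62 and 0.47 above the MASH mean on the log2 scale) and lower in replicates 2 and 3 (0.05 and 0.10), while MASH replicate 4 stood at 0.38. Of 22 recruited macrophage genes 21 were above zero (median 0.31), with Itgax, Ccr2 and Lyz2 at an unadjusted p under 0.05 (background 3.06%) and 0 without overlap. Ccr2, the receptor for CCL2, measured 6.44, 8.26 and 16.7 CPM in MASH and 18.4, 14.2, 16.4 and 18 CPM with C18:1 (log2 difference 0.68, interval 0.07 to 1.28). MASH replicate 4 was at the C18:1 level for Ccr2. Itgax, the integrin CD11c, differed by 0.59 and the lysozyme gene Lyz2 by 0.44. Ccl2 measured 2.69, 3.78 and 4.05 CPM in MASH and 4.57, 3.89, 3.02 and 4.70 CPM with C18:1, a log2 difference of 0.21 (interval −0.27 to 0.69, unadjusted p = 0.373). Of 33 chemokine and cytokine genes 27 were above zero (median 0.38), among them Cxcl16 at 0.40 (interval 0.01 to 0.78). Without MASH replicate 4 the macrophage median was 0.55. With the tag groups it was −0.09 and the chemokine median −0.01.

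Of 37 collagen and matrix genes 31 were above zero (median 0.46), with 3 higher at an unadjusted p under 0.05 (background 3.06%) and 0 without overlap. Limma voom with sample weights gave 17 higher, against 6.74% of all genes. C18:1 replicate 1 was the highest library for 26 of them and MASH replicate 2 the lowest for 21. Col1a1, the main fibrillar collagen chain of scar, measured 25.3, 48.8 and 95.1 CPM in MASH and 143, 41.8, 104 and 79.8 CPM with C18:1 (log2 difference 0.71, interval −0.31 to 1.73). The range within each group exceeded 3-fold for Col1a1, and Col1a2 (0.57) ran through the libraries in the same order. Col3a1 (0.58) did so with MASH replicate 4 and C18:1 replicate 3 exchanged. Lox, which cross-links collagen, measured 1.12, 1.40 and 2.48 CPM in MASH and 4.57, 1.88, 3.18 and 3.22 CPM with C18:1 (log2 difference 0.95, interval 0.24 to 1.66). The elastin gene Eln and Col4a2 differed by 1.14 and 0.46. Without C18:1 replicate 1 or MASH replicate 2 the list median was 0.25, without MASH replicate 4 it was 0.70, and with the tag groups −0.19.

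The bile duct list had the highest median of the 36 lists, 0.63 over 20 genes, yet 0 members had an unadjusted p under 0.05. Krt19, a duct keratin, measured 0.994, 1.53 and 4.79 CPM in MASH and 6.06, 1.22, 10.5 and 2.11 CPM with C18:1 (log2 difference 1.03, interval −1.02 to 3.09). The list median was 0.29 and 0.19 without MASH replicates 2 and 3, 0.28 and 0.38 without C18:1 replicates 1 and 3, and 1.85 without MASH replicate 4. The whole list summed to 370 to 719 CPM in MASH and 429 to 804 CPM with C18:1. The part of the bile duct markers in the macrophage, matrix and hepatocyte values was not tested.

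Neutrophil genes were highest in C18:1 replicate 2 for 11 of 13 tested genes. Their median log2 difference was 0.53, and 0.08 without that library. With the tag groups it was 1.02, and all 13 genes were above zero. In that setting 6 were higher at an unadjusted p under 0.05, against 2.12% of all genes. With the titles 0 were. Leaving out both libraries whose labels disagree, the median was 0.59 over 11 genes. Csf3r, the receptor for the growth factor G-CSF, measured 5.63 to 6.38 CPM in MASH and 7.01 to 11.3 CPM with C18:1, without overlap (log2 difference 0.53, unadjusted p = 0.0517). The other neutrophil gene without overlap was Retnlg, so 2 of the 13 were higher without overlap (background 2.79%).

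Immediate early genes, which respond within minutes to growth factors and stress, were higher in C18:1 replicate 4 than elsewhere (14 of 21 genes). Their median log2 difference was 0.23, and 0.02 without that library. At an unadjusted p under 0.05 there was 1 member higher (background 3.06%), and 4 members were higher without overlap (background 2.79%). Ier3, an early gene that modulates cell survival, differed from the rest of the list in that all 4 C18:1 libraries were alike. It measured 1.57, 1.76 and 2.42 CPM in MASH and 3.39, 3.32, 3.36 and 3.28 CPM with C18:1 (log2 difference 0.80, SE 0.24, interval 0.28 to 1.32, unadjusted p = 0.00523). Junb, Ier2 and Btg2 did not overlap either, with log2 differences of 0.73, 0.39 and 0.60, and the intervals of all 3 included zero. Junb measured 30.4, 43.9 and 55.0 CPM in MASH and 55.5, 57.5, 82.0 and 91.5 CPM with C18:1.

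Among the remaining genes with the smallest p in the higher direction was Agap2, a GTPase-activating protein for ARF that binds phosphoinositide 3-kinase (ENSMUSG00000025422, chromosome 10, 127075284 to 127093169, plus strand). Agap2 measured 2.55, 2.72 and 3.52 CPM in MASH and 4.69, 6.36, 4.80 and 6.94 CPM with C18:1, without overlap. The log2 difference was 0.96 (SE 0.20, interval 0.52 to 1.39, unadjusted p = 0.000369), with an adjusted p of 0.0185 by DESeq2 and of 0.770 by edgeR. Over its alternatives the adjusted p of Agap2 ran from 0.0185 to 1, and with the tag groups the difference was 0.68. Slc39a13, a zinc transporter, had narrow groups at 14.5, 13.1 and 14.1 CPM against 16.7, 17.3, 16.1 and 16.7 CPM (log2 difference 0.26, SE 0.07, interval 0.12 to 0.41). Sorl1, a sorting receptor, measured 7.54 to 11.1 CPM in MASH and 13.3 to 16.0 CPM with C18:1 (log2 difference 0.55, interval 0.23 to 0.88). Sh3bgrl3, Sfi1, Padi2 and Adap1 were also without overlap, with log2 differences of 0.47, 0.42, 0.90 and 0.77.

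Several genes with larger folds and no overlap were scarce. Ccn5, a secreted matricellular protein, measured 0.331, 0.366 and 0.737 CPM in MASH and 1.26, 0.909, 1.19 and 1.09 CPM with C18:1 (log2 difference 1.21, interval 0.48 to 1.94). Igdcc4 and Plekhn1 differed by 1.32 and 0.91. In the lower direction Trhde, which encodes a peptidase that degrades thyrotropin-releasing hormone, measured 1.01, 1.03 and 0.962 CPM in MASH and 0.501, 0.426, 0.503 and 0.478 CPM with C18:1 (log2 difference −1.06, interval −1.93 to −0.19). Each C18:1 library was thus close to 0.5 CPM and each MASH library close to 1 CPM. Hhip, which binds and restrains hedgehog ligands, the manganese exporter Slc30a10 and Bmp10 differed by −0.85, −0.75 and −0.74.

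The remaining lists had medians between −0.27 and 0.22. Kupffer cell, endothelial, cell cycle, B and plasma cell and ribosomal protein genes had medians of −0.02, 0.01, 0.02, 0.00 and 0.03. In each, 0 members had an unadjusted p under 0.05 (background 6.18%). With the tag groups these medians were 0.15, 0.04, −0.40, −0.27 and 0.12. In that setting 24 of 25 cell cycle genes were below zero and all 24 ribosomal protein genes above it. With voom the cell cycle median was 0.33, and 23 of the 25 were above zero. Medians of glucose and insulin, acute phase, redox (NRF2) and lipid droplet genes were −0.05, −0.09, −0.10 and −0.15. At an unadjusted p under 0.05 they had 1, 1, 2 and 1 members (background 6.18%). The acute phase median depended on single libraries, at −0.30 without MASH replicate 2 and 0.52 without MASH replicate 3. With the tag groups it was 0.36, with all 20 genes above zero, and the glucose and insulin median was 0.12. Unfolded protein and integrated stress response genes had a median of 0.08 and clock genes 0.17. With the titles they had 1 and 2 members at an unadjusted p under 0.05 (background 6.18%). Stellate cell genes stood at 0.22 (17 of 20 above zero) and erythroid genes at −0.19, or −0.07 and 0.66 with the tag groups. With the titles, 0 members of either had an unadjusted p under 0.05. Genes with a male or a female bias in liver had medians of −0.01 and −0.27, with 3 such members in each list, of 20 and 13 tested (background 6.18%). Few pancreas and fat tissue genes could be tested (4 and 3, medians 0.22 and −0.17), and 0 of them had an unadjusted p under 0.05. With the compared groups alone, 1 pancreas gene could be tested. Reg1 and Ctrb1 averaged at most 0.0213 CPM in the compared groups, and 1.28 to 43.0 CPM in the chow and C18:1-leucine groups. The pancreas median thus rests partly on genes nearly absent from both compared groups.

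The treatment tag of C18:1 replicate 1 bears on most of these lists. By whole-transcriptome distance that library was nearest to MASH replicate 4 (0.408), next to C18:1 replicates 3 and 4 (0.452 and 0.483), and farthest from MASH replicates 2 and 3 (0.662 and 0.688). The distances therefore placed it with neither group as a whole. Reading the groups from the tags moves this library to MASH and C18:1-leucine replicate 1 to C18:1, and the medians of 21 of 36 lists then change sign. Matrix, T cell, macrophage, hepatocyte and respiratory chain genes are among these 21. The interferon median stays above zero, at 0.23, and the PPARα median moves to −0.06. Leaving out both libraries whose labels disagree, the 4 medians of interferon, T cell, matrix and PPARα genes were 0.45, 0.26, 0.25 and −0.13, and 0 genes passed the adjusted threshold.

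**Figure D5:**
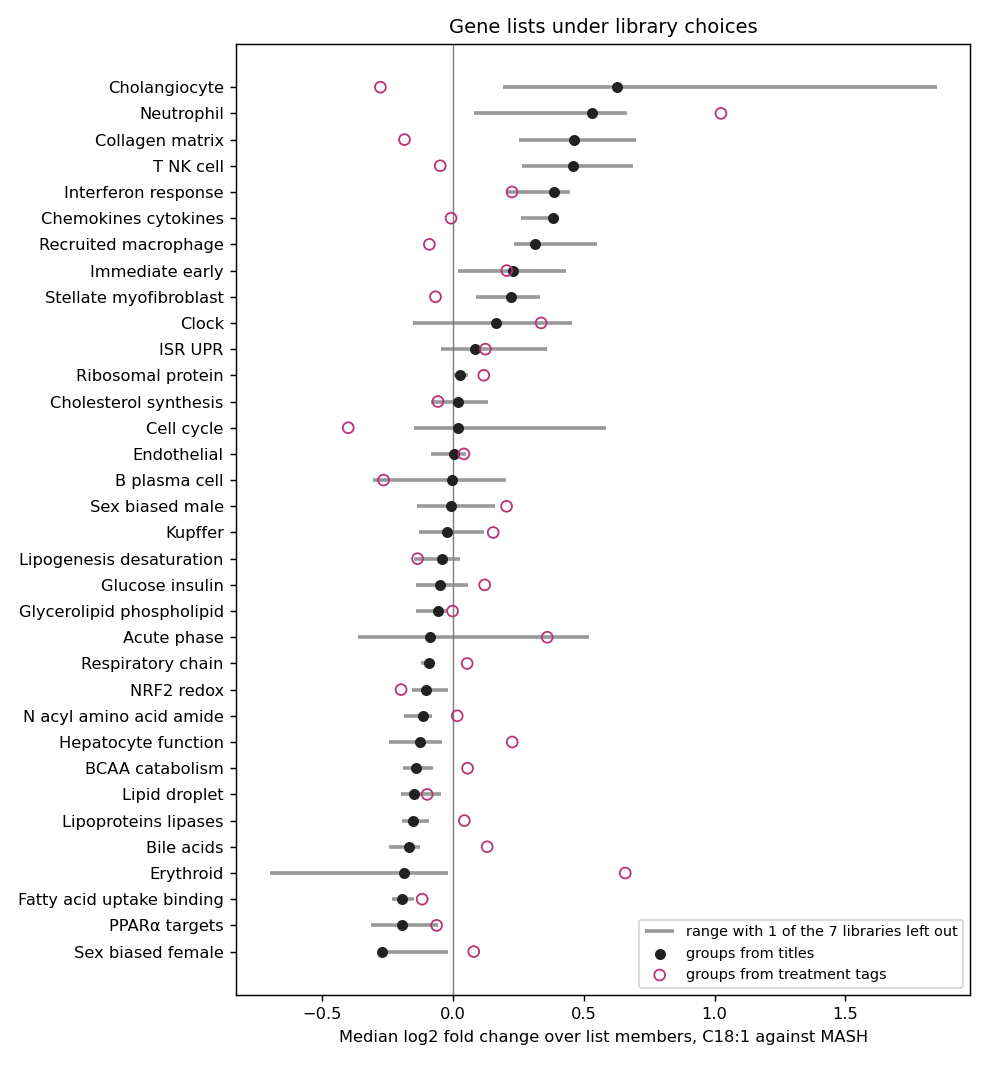
Median log2 fold change of 34 gene lists, C18:1 against MASH, on the horizontal axis: filled points use the titles, open points the treatment tags, and grey lines span the medians with 1 of the 7 libraries left out in turn. The bile duct list stands at 0.63 with titles and at −0.28 with tags, and the interferon list at 0.39 and 0.23.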

How the data were processed

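RNA-seq of mouse liver was measured in 14 libraries, of which 7 are compared. RNeasy kits served for RNA extraction and NEBNext Ultra II for the libraries, per the labels' protocols. The authors deposited expected counts per Ensembl gene, not normalized; between 5.09% and 5.76% of a library's values were fractional, and all were rounded to whole counts. The submitters' processing notes name HTSeq, DESeq2 1.42.1 and GRCm38; the aligner was not given in the sources used here. Log2 fold changes and p-values of the authors' own comparisons were deposited too, as named in the file headers; the table of this contrast was matched by its fold changes (r = 0.94 across 15672 genes, which are not independent replicates).

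Groups came from the titles. Of 45706 genes, 15674 passed edgeR's filter (minimum count 10, minimum total count 15), and were tested over all 14 libraries in a shared fit with TMM scaling and a two-sided quasi-likelihood test (R 4.3.3, edgeR 4.0.16), with Benjamini-Hochberg adjustment at 0.05. CPM use TMM-scaled library sizes and are not per length, so levels are compared within a gene only. The scripts were tested on simulated data. Principal components and distances used log2 CPM with a prior count of 2, and the strip plots a pseudocount of 0.5. Intervals are 95%, from the fitted SE. Gene positions come from GENCODE M21, promoters from RefSeq GRCm38.p6.

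Alternatives were DESeq2 1.42.0, limma 3.58.1 voom with sample weights, RLE scaling, no filter, the compared groups alone, a replicate block, groups from the treatment tags, a fit lacking both libraries whose labels disagree, and one with each library left out in turn. Genes named were the 12 with the smallest p in each direction, the 5 largest differences in each direction without overlap and with an unadjusted p under 0.05, up to 3 members with the smallest p of each list, and Ccl2 and Ppara. In the first and the second of these sets the group with more expression had to average 1 CPM or more and clone or predicted-gene symbols (Gm numbers, Rik) were passed over, and the text names a part of them. Named outside this rule, after their values were seen, were Pcyt2, Selenoi, Acot1, Angptl4, Cyp4a14, Ucp2, Oas2, Xaf1, Ifit3b, Ifit2, Oas1a, Krt19, Ppm1k, Naaa, Ier2, Btg2, Trac, Fabp2, Dbp, Nr1d1, Per3, Cd27, Cd5, Col1a1, Col1a2, Col3a1 and the genes of the first principal component. The comparison and the 36 gene lists were chosen with earlier results of these data known.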

Additional observations from a re-analysis of the deposited data

Results flagged for a closer look

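Of 115 values checked in the 4 C18:1 libraries, 8 had 1 library far from the other 3; chance flags about 1 in 20 groups. For Acot3, C18:1 replicate 3 was the high library at 4.85 CPM, with the others at 1.96 to 2.25 CPM. Pdk4 was low in C18:1 replicate 2, at 14.9 CPM against 33.2 to 35.3 CPM. Plekhn1 was also low in that library, at 0.796 CPM against 1.24 to 1.33 CPM.

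The other 5 values were high in C18:1 replicate 2. The neutrophil gene Retnlg measured 0.852 CPM there and 0.361 to 0.435 CPM in the other C18:1 libraries. Summed neutrophil markers reached 25 CPM against 12.6 to 13.7 CPM, and summed endothelial markers 255 CPM against 189 to 195 CPM. Summed erythroid markers, which are haemoglobin and haem synthesis genes, reached 522 CPM against 194 to 228 CPM. The whole erythroid list reached 756 CPM against 267 to 321 CPM. C18:1 replicate 2 was thus the highest of the 4 libraries in neutrophil, endothelial and erythroid markers alike.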

How the results depend on the processing

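Past the adjusted threshold there were 3 genes with DESeq2 and 0 with edgeR, voom and each library left out (0 to 0). At an unadjusted p under 0.05, voom gave 1056 genes higher and 792 lower, and leaving out both libraries with disagreeing labels gave 317 higher. Groups from the tags gave 259 lower. Leaving out 1 library gave 189 to 1148 higher and 157 to 795 lower. Library numbers did not pair the groups (correlations of same-numbered deviations 0.298, −0.133 and −0.227), and a replicate block gave 0 past the threshold, 416 higher and 396 lower. Of 2024 alternative fold changes of 92 named genes, 2004 kept direction and side of the threshold, 3 passed it and 17 changed sign. With the tag groups 15 changed sign: Alb (0.05), Otc (0.02), Acadsb (0.07), Acot3 (0.10), Ucp2 (−0.08), Itgax (−0.01), Col4a2 (−0.16), Hhip (0.23), Ccl2 (−0.29), Mcee (0.06), Aspa (0.05), Cxcl16 (−0.07), Col1a1 (−0.21), Col1a2 (−0.19) and Col3a1 (−0.43). With each library left out, Cyp4a14 ran from −1.52 to 0.08 and Nr1d1 from −0.18 to 0.55, each changing sign without MASH replicate 2. The causes were not tested. With 3 and 4 libraries, the median interval of ±0.33 limits what could be detected.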

Other observations

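Further T cell surface genes had large folds at very low counts. Cd27, a costimulatory receptor, held 8, 8 and 13 counts in MASH replicates 2, 3 and 4 and 40, 12, 20 and 27 counts in C18:1 replicates 1 to 4. Its log2 difference was 1.34 (SE 0.38, unadjusted p = 0.0033), and 0.06 with groups from the treatment tags. Cd5, a coreceptor of T cells and some B cells, held 18, 12 and 14 counts in MASH and 44, 20, 38 and 54 counts with C18:1. The Cd5 difference was 1.40 (SE 0.48, unadjusted p = 0.012), and 0.49 with the tag groups. Neither gene overlapped between the groups by CPM, and both were chosen after their values were seen.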
